A study of Rattus norvegicus with 54 samples.

Results

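Vascular smooth muscle cells are marked by a small set of genes that build and run their contractile apparatus, and 10 of them are described here: Acta2, Actg2, Tagln, Cnn1, Lmod1, Myh11, Mylk, Des, Smtn and Myocd. They were chosen by gene symbol, and all 10 were found among the 12650 genes of the lung table and the 12199 genes of the right ventricle table. All 10 also passed the filter on low counts in both tissues. RNA was sequenced from lung and right ventricle of 6-week-old Sprague Dawley rats of both sexes. The altitude rats (H-H) were conceived, born and raised in a hypobaric chamber set to 9000 feet, which corresponds to 15% inspired oxygen, and the room air rats (RA-RA) lived outside it throughout; parents were kept in the air of their pups. Lung came from 14 altitude rats (3HH, 8 rats; 4HH, 6 rats) and 15 room air rats (4RARA, 8 rats; 6RARA, 7 rats). Right ventricle came from the same 14 altitude rats and from 11 of the room air rats (4RARA, 7 rats; 6RARA, 4 rats). Each exposure therefore rested on 2 litters, and littermates served as replicates. In the fits of exposure a p value rests on the spread between littermates as well as between litters. In the fits of litter it rests on the spread between littermates alone.

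Smooth muscle contracts when calcium and calmodulin activate myosin light chain kinase, which phosphorylates the regulatory light chain of myosin and lets it pull on actin filaments. The genes of this apparatus share a transcriptional switch: serum response factor binds CArG boxes in their promoters, and its coactivator myocardin raises their transcription in differentiated cells. Smooth muscle that leaves the contractile state lowers these genes, and the walls of small lung arteries gain smooth muscle in chronic hypoxia in rats. Several members are not restricted to smooth muscle. Des encodes desmin, the intermediate filament of all muscle including heart muscle, and Myocd is also active in heart muscle cells.

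Of the 10 genes, 6 had an entry in the table of RefSeq promoters (GRCr8), each covering 250 bases before the start and 50 after it: Acta2, Cnn1, Des, Mylk, Smtn and Actg2. The stretch of the Acta2 promoter is shown because it holds the only 2 CArG-like elements found, which are the kind of site through which the coactivator of this gene set acts. It lies on the minus strand at chr1:241172548-241172652 of GRCr8 and runs from base −149 to base −45 before the start, with the elements in capitals.
Acta2 promoter: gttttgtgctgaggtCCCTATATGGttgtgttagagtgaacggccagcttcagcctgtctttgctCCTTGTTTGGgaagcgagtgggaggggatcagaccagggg
The first element begins at base −134 and the second at base −84. An exact CArG box is CC, a core of 6 bases that are all A or T, and GG, and none of the 6 promoters held one. A CArG-like element was defined by allowing 1 G or C in that core, which both Acta2 elements have. The element reads the same kind of sequence on either strand, so 1 search covers both. Among 33469 promoter windows of the rat genome, 1.64% held an exact box and 9.42% a CArG-like element. These matches are descriptions of the sequence and not measured binding sites.

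Each lung library held between 1028679 and 23902634 counts, and each right ventricle library between 6116006 and 16326512. A group of libraries stood apart from the rest and touches every result that follows. In lung these were 4HH37, with cardiac muscle markers at a summed 14290 CPM (read counts scaled to a common library total), 6RARA66, with 59.2% intergenic reads and the lowest total, and 4HH39 and 6RARA68. The median Spearman correlation with the other lung libraries was 0.778 for 4HH39, 0.867 for 6RARA68 and 0.880 for 6RARA66, against 0.948 or more for lung libraries outside this group. For 4HH37 it was 0.954, so this measure did not set that library apart. In right ventricle they were 4HH37, with lung epithelial markers at a summed 15200 CPM, and all 4 libraries of litter 6RARA. The right ventricle of 6RARA had RNA integrity numbers (RIN) of 5.8 to 7.4, with a median of 6.15. The RIN was 7.7 to 8.6 in 4HH (median 8.2), 5.9 to 8.4 in 3HH (8.1) and 6.5 to 9.6 in 4RARA (8.4). The range of 6RARA thus overlapped those of 3HH and 4RARA. The intergenic share of 6RARA was 17.3% to 22.5%, against 9.62% to 14.6% in litter 4HH, 10.8% to 14.8% in litter 3HH and 9.28% to 12.3% in litter 4RARA. All values are TMM-scaled CPM unless said otherwise, and in whole tissue fewer smooth muscle cells and less RNA per cell cannot be told apart.

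Which contractile genes lead in each tissue was read from CPM per kb of exon, on a scale shared by both tissues. In room air lung the median levels were highest for Tagln (240 CPM per kb), the actin-binding protein transgelin, and for Acta2 (114 CPM per kb), the smooth muscle alpha-actin. Mylk, the myosin light chain kinase, followed at 64.4 CPM per kb. Des at 37.2, Myh11 at 34.7, Actg2 at 34.1 and Cnn1 at 30.6 CPM per kb were neighbours whose ranges over 15 libraries overlapped. Smtn lay at 13.2, Lmod1 at 6.14 and Myocd, the coactivator itself, at 1.14 CPM per kb. In room air right ventricle the order changed. Des led by far at 2010 CPM per kb, ahead of Acta2 at 143, Tagln at 108 and Smtn at 68.9 CPM per kb. Myh11 (22 CPM per kb) and Mylk (20.7 CPM per kb) overlapped, as did Myocd (13.3 CPM per kb), Actg2 (9.32 CPM per kb), Cnn1 (6.20 CPM per kb) and Lmod1 (3.73 CPM per kb) with their neighbours in the order over 11 libraries.

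**Figure D1:**
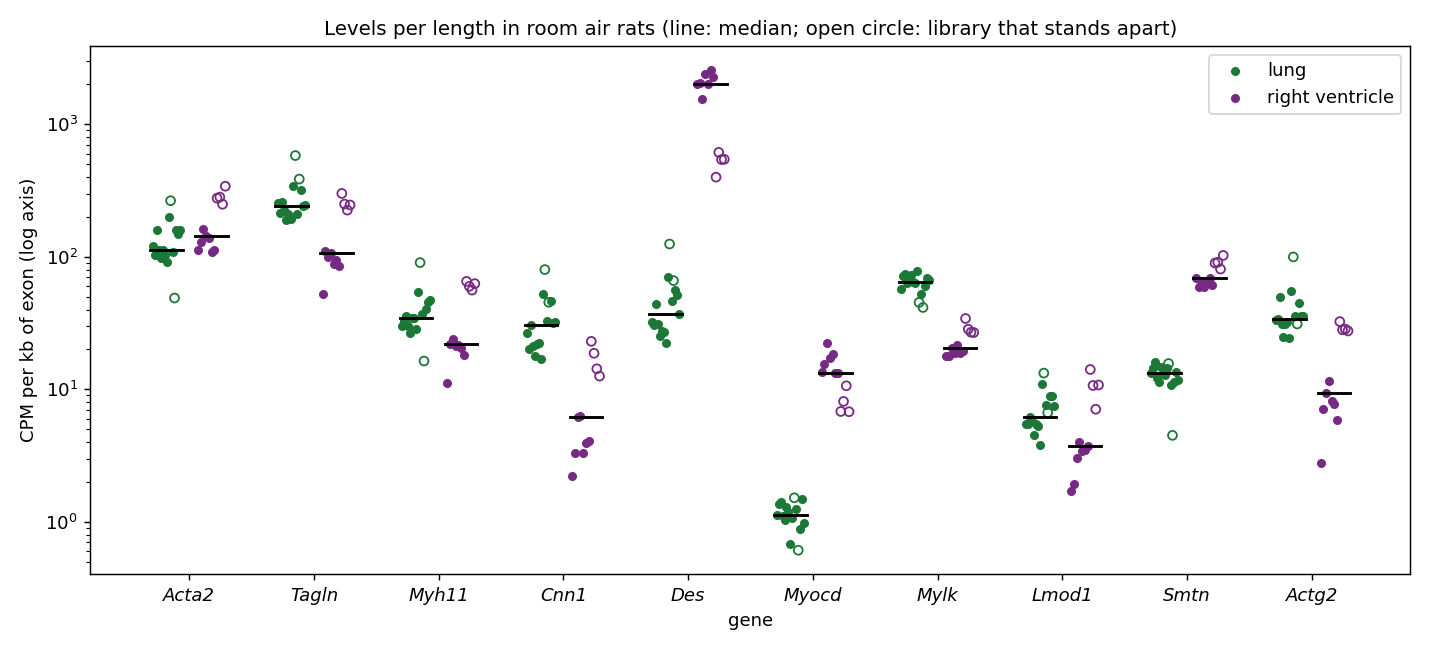
Level of each gene in room air rats in CPM per kb of exon on a log axis, lung left of right ventricle, 1 point per library (15 of lung, 11 of right ventricle), with the median as a line and libraries that stand apart as open circles. Des and Myocd are far lower in lung than in right ventricle, and the 4 open circles of right ventricle lie below the filled ones for Des and Myocd.

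Lung and right ventricle differed in the level of most members, as they did for most genes. With all room air and altitude libraries in 1 fit, 8 of 10 members differed between room air lung and room air right ventricle at an adjusted p under 0.05 in edgeR's quasi-likelihood test, where 68.4% of the 11723 genes tested did. Lower in lung were 4 members, where 35.8% of genes were: Des with a log2 difference of −5.06 ± 0.39 (SE), Myocd with −3.55 ± 0.25, Smtn, encoding the actin-binding protein smoothelin, with −2.54 ± 0.16, and Acta2 with −0.50 ± 0.23 (adjusted p = 0.0482). Higher in lung were 4, where 32.6% of genes were: Cnn1, encoding calponin (1.87 ± 0.33), Mylk (1.47 ± 0.16), Actg2, the enteric smooth muscle gamma-actin (1.34 ± 0.31), and Tagln (0.81 ± 0.24). Myh11, the smooth muscle myosin heavy chain, and Lmod1, leiomodin, which nucleates actin filaments, did not pass (adjusted p = 0.594 and 0.340). Without the libraries that stand apart 9 members passed, where 76.4% of genes did. Acta2 was then no longer among them (log2 difference 0.043 ± 0.23, adjusted p = 0.873), while Myh11 (0.94 ± 0.20) and Lmod1 (1.14 ± 0.21) were higher in lung.

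The lung comparison asks whether lifelong exposure to low oxygen pressure altered the smooth muscle programme of the organ whose arteries thicken in hypoxia. No member passed the test between altitude and room air lung in edgeR's quasi-likelihood test, where 2.00% of 12115 genes passed. The members were spread evenly about 0: 5 lay above and 5 below, with a median log2 fold change of 0.003 against 0.02 over all genes tested. At an unadjusted p under 0.05 there was 1 member, Actg2, among 1623 genes, and DESeq2 called 0 members, where it called 3.76% of genes. Without the libraries that stand apart 0 passed in edgeR as well, where 3.71% of genes did, and 2 had an unadjusted p under 0.05, Smtn (0.28 ± 0.10) and Actg2 (−0.43 ± 0.15). Among the actins, Acta2 lay at 86.2, 194.6 and 344 CPM in altitude lung (lowest, median, highest of 14) and at 76.0, 180.4 and 412 CPM in room air lung (of 15). The ranges overlapped almost entirely, and the log2 fold change was −0.06 with a 95% interval of −0.44 to 0.32.

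Actg2 had the lowest adjusted p of the set in lung. It lay at 24.7, 34.6 and 81.5 CPM in altitude lung and at 33.6, 47.9 and 137 CPM in room air lung. Altitude lung was the lower of the groups, but the ranges overlapped, and the log2 fold change of −0.39 ± 0.18 (SE) had an edgeR adjusted p of 0.352. In the authors' deposited table its log2 fold change was −0.40 with a false discovery rate of 0.0935. The value rested on litter 3HH: without litter 4HH it was −0.79 ± 0.19 and passed (adjusted p = 0.0273), where 1.93% of genes passed, and without litter 3HH it was 0.018 ± 0.21 (adjusted p = 0.977).

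Tagln, Cnn1 and Lmod1, whose proteins bind or nucleate actin filaments, did not pass in lung (adjusted p = 0.648 or more). Tagln lay at 197, 306 and 1036 CPM in altitude lung and at 229, 287 and 686 CPM in room air lung, a log2 fold change of 0.25 ± 0.20. Its highest altitude value, in 4HH39, lay far above the highest room air value. Cnn1 lay at 22.4, 37.8 and 108 CPM in altitude lung and at 27.7, 50.6 and 130.4 CPM in room air lung (−0.29 ± 0.22). Lmod1 lay at 19.0, 28.1 and 55.2 CPM in altitude lung and at 16.9, 27.4 and 58.1 CPM in room air lung (−0.01 ± 0.16). The groups overlapped for each of these genes.

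Of the motor genes, Myh11, the heavy chain, lay at 38.1, 284 and 553 CPM in altitude lung and at 121, 261 and 666 CPM in room air lung (log2 fold change 0.07 ± 0.24). Mylk had the narrowest interval of the set, −0.24 to 0.28 about a log2 fold change of 0.02, with 242, 567 and 773 CPM in altitude lung and 362, 573 and 706 CPM in room air lung. Of the remaining genes, Smtn lay at 15.8, 62.2 and 84.0 CPM in altitude lung and at 16.7, 49.5 and 61 CPM in room air lung (0.30 ± 0.17, adjusted p = 0.503). Altitude lung had the higher median of Smtn, within an overlapping range. Myocd was low in both groups, at 0.943, 6.04 and 13.8 CPM in altitude lung and 3.40, 6.39 and 8.44 CPM in room air lung (−0.10 ± 0.24).

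Des shows how far a single library can move a lung value. It lay at 60.6, 100.2 and 826 CPM in altitude lung and at 55.2, 91.9 and 303 CPM in room air lung. The highest value was that of 4HH37, whose cardiac muscle markers also stood far above those of other lung libraries. The log2 fold change was 0.44 ± 0.36 with all libraries and −0.09 ± 0.22 without animal 4HH37.

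**Figure D2:**
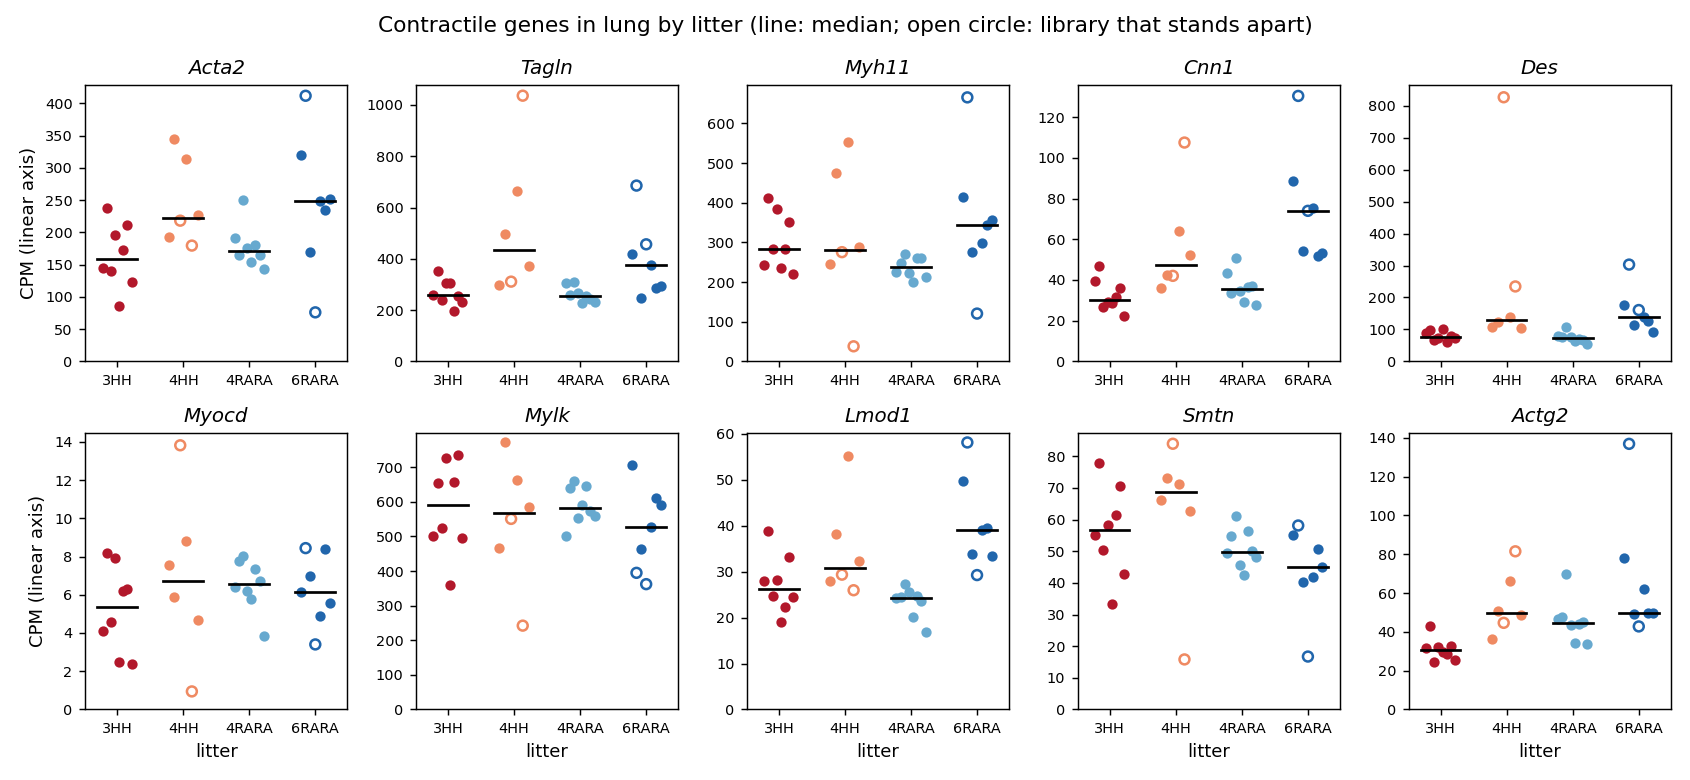
CPM of each gene in lung on linear axes by litter (8 rats of 3HH, 6 of 4HH, 8 of 4RARA, 7 of 6RARA), 1 point per library, with the litter median as a line and libraries that stand apart as open circles. The litters overlap for most genes, and Des of 4HH37 reaches 826 CPM.

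The surrounding pathway was read from lists of partner genes. Of 15 contractile partners 12 were tested in lung and none passed. Their median log2 fold change was 0.16, and the gene of lowest p was Myl9, the regulatory light chain that the kinase phosphorylates (0.50 ± 0.16, adjusted p = 0.124). Of 24 genes of contraction signalling 21 were tested and none passed (median 0.16), with Gucy1a3, a subunit of the nitric oxide receptor, at 0.44 ± 0.14 and an adjusted p of 0.100. Of 10 genes associated with the synthetic, less contractile state all were tested and none passed (median −0.03). The gene of lowest p among these was Tpm4, a tropomyosin, at 0.44 ± 0.15 with an adjusted p of 0.124.

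The list of serum response factor (SRF) cofactors and repressors gave 1 call in lung among 9 of 14 genes tested. This list also holds Jag1, a Notch ligand that is neither. The call was Klf4. This transcription factor, which represses smooth muscle contractile genes in cultured cells and mice, fell in altitude lung by 0.81 ± 0.15 on the log2 scale (SE, edgeR adjusted p = 0.00181). Klf4 lay at 87.4, 104 and 153 CPM in 3HH, 62.1, 102 and 147 CPM in 4HH, 105.5, 133 and 205 CPM in 4RARA and 196, 239.7 and 292 CPM in 6RARA. The altitude litters lay close together, whereas 6RARA lay above 4RARA with little overlap, and Klf4 was itself lower in 4RARA than in 6RARA (−0.69 ± 0.16, adjusted p = 0.00321). Without litter 6RARA the altitude value was −0.45 ± 0.14 and did not pass (adjusted p = 0.132), nor did it in limma with litter as a random effect (adjusted p = 0.254).

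Few markers of other cells passed between altitude and room air lung. No pericyte (9 tested), fibroblast (9), lung epithelial (11), cardiac muscle (10) or skeletal muscle (3) marker passed. Among 9 endothelial markers Emcn, endomucin, rose (0.60, edgeR adjusted p = 0.0287) and Tek, the angiopoietin receptor, fell (−0.43, adjusted p = 0.0452), and of 3 liver markers Serpina1 rose (0.88 ± 0.13). All 10 cardiac muscle markers lay above 0 with a median log2 fold change of 3.33, the skeletal muscle markers had a median of 1.64, and 4HH37 held cardiac muscle markers at a summed 14290 CPM against 209.1 or less in other lung libraries.

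Litters raised in the same air differed in this gene set. In lung, 4 of 10 members were lower in 3HH than in 4HH, where 4.11% of 12399 genes differed in either direction and 2.83% were lower. Des had a log2 difference of −1.67 ± 0.35 (edgeR adjusted p = 0.00777), Tagln of −0.95 ± 0.22 (0.0145), Actg2 of −0.80 ± 0.20 (0.0275) and Cnn1 of −0.78 ± 0.21 (0.0352). Des ranged over 60.6 to 101 CPM in 3HH (8 rats) and 104.8 to 826 CPM in 4HH (6 rats). It was the 1 member whose litters did not overlap, where 1.68% of 12115 genes did not. Cardiac muscle markers moved with it, 8 of 10 being lower in 3HH, and 4HH37 held by far the most of them. Without the libraries that stand apart, 4HH37 and 4HH39 among them, the difference of Des was −0.58 ± 0.16 and still passed (adjusted p = 0.0441). Cnn1 then no longer passed (−0.60 ± 0.18, adjusted p = 0.0762), and Acta2 did (−0.74 ± 0.20, adjusted p = 0.0401). The calls were then Acta2, Tagln, Des and Actg2, where 2.94% of genes passed.

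In lung the room air litters differed in many genes, some members among them. Lower in 4RARA than in 6RARA were 3 of 10 members, where 20.8% of genes differed and 10.1% were lower. Des differed by −1.08 ± 0.34 on the log2 scale (edgeR adjusted p = 0.0233), Cnn1 by −0.99 ± 0.21 (0.00160) and Lmod1 by −0.77 ± 0.17 (0.00257). Cnn1 ranged over 27.7 to 50.6 CPM in 4RARA (8 rats) and 52 to 130.4 CPM in 6RARA (7 rats). Cnn1 and Lmod1 were the 2 members whose litters did not overlap, where 12.9% of genes did not. Without the libraries that stand apart, 6RARA66 and 6RARA68 among them, Des, Cnn1, Lmod1 and Myh11 (−0.51 ± 0.17) passed, where 28.1% of genes did. Of 11 lung epithelial markers, 2 were higher and 3 lower in 4RARA. The lower ones were Scgb1a1 (−1.73 ± 0.31) and Scgb3a2 (−1.56 ± 0.44), secretoglobins of club cells, and Foxj1 (−1.03 ± 0.34), a factor of ciliated cells. Napsa of alveolar cells (0.71 ± 0.20) was among the higher ones. The intergenic share was 18.4% to 20.8% in 4RARA and 20.3% to 59.2% in 6RARA. The part of these in the litter differences was not tested. With all libraries 9 of 10 members lay below 0 in 3HH over 4HH and 7 of 10 in 4RARA over 6RARA, with median log2 differences of −0.47 and −0.53.

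The right ventricle pumps against the lung circulation and carries its load when lung arteries narrow. Between altitude and room air right ventricle no member passed edgeR's quasi-likelihood test, where 3.04% of 11298 genes passed. The members nevertheless leaned to one side, with 8 below 0 and a median log2 fold change of −0.78, against 0.02 over all genes. At an unadjusted p under 0.05 there were 6 members, among 2339 genes. With RIN as a covariate the median was −0.44 and no member passed, where 0.451% of genes did. At an unadjusted p under 0.05 there were then 2 members, Acta2 (−0.64 ± 0.26) and Tagln (−0.59 ± 0.27), among 1777 genes. DESeq2 called 4 of 10 lower, Acta2, Tagln, Myh11 and Lmod1, where it called 7.40% of genes in either direction. In the authors' deposited table Acta2 had a log2 fold change of −0.78 with a false discovery rate of 0.0140, and Tagln one of −0.62 with a rate of 0.0596.

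**Figure D3:**
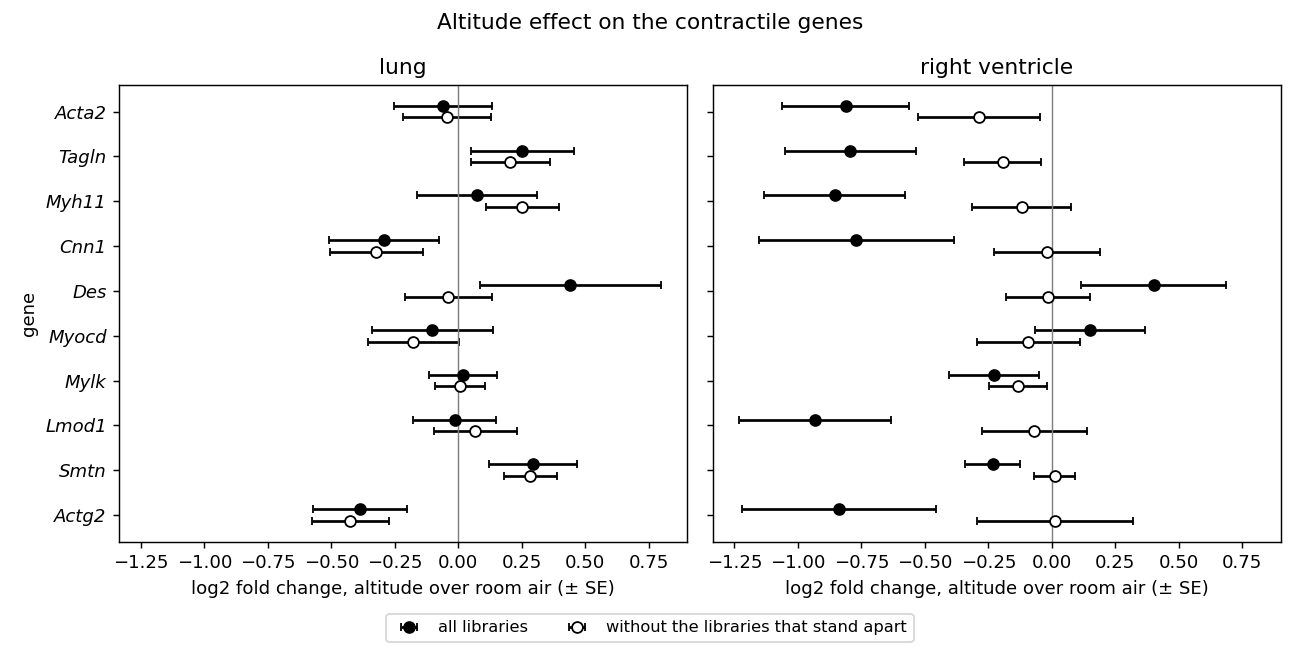
Log2 fold change of altitude over room air with its standard error for each gene, lung left and right ventricle right, with all libraries (filled) and without the libraries that stand apart (open). In right ventricle the values of Acta2, Tagln, Myh11, Cnn1, Lmod1 and Actg2 lie between −0.93 and −0.77 with all libraries and between −0.29 and 0.01 without those that stand apart.

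The actins and their partners had the largest differences. Acta2 lay at 47.9, 117 and 274 CPM in altitude right ventricle (lowest, median, highest of 14) and at 126, 166 and 409 CPM in room air right ventricle (of 11). The log2 fold change was −0.81 ± 0.25 with an edgeR adjusted p of 0.0698. Tagln lay at 47.3, 72 and 172 CPM in altitude right ventricle and at 46.7, 95.3 and 267 CPM in room air right ventricle (−0.79 ± 0.26, adjusted p = 0.0821). In both genes the altitude group had the lower median and the ranges overlapped. Myh11 lay at 41.7, 104 and 179 CPM in altitude right ventricle and at 62.3, 124 and 361 CPM in room air right ventricle (−0.85 ± 0.28, adjusted p = 0.0821). Lmod1 lay at 4.98, 10.1 and 16.5 CPM in altitude right ventricle and at 5.70, 12.3 and 46.5 CPM in room air right ventricle (−0.93 ± 0.30, adjusted p = 0.0810). For all 4 genes the highest values belonged to room air rats.

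Cnn1 and Actg2 were sparse in right ventricle. Cnn1 lay at 2.34, 5.61 and 21.6 CPM in altitude right ventricle and at 2.73, 7.45 and 28.2 CPM in room air right ventricle (−0.77 ± 0.38, adjusted p = 0.251). Actg2 lay at 3.11, 7.35 and 23.3 CPM in altitude right ventricle and at 2.89, 9.45 and 33.5 CPM in room air right ventricle (−0.84 ± 0.38, adjusted p = 0.212). Their 2 groups overlapped over most of the range. Smtn had a log2 fold change of −0.23 ± 0.11 and Mylk one of −0.23 ± 0.18, while Des (0.40 ± 0.29) and Myocd (0.15 ± 0.22) lay on the other side of 0, and none of these 4 passed.

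Those highest values came from litter 6RARA. Every one of the 10 members differed between 4RARA and 6RARA right ventricle in edgeR's test, where 59% of 11810 genes did, and for all 10 the CPM ranges of these litters did not overlap, where 46.5% of genes did not. Acta2 lay at 126, 153 and 186 CPM in the 7 rats of 4RARA, and at 323, 334, 295 and 409 CPM in the 4 of 6RARA. Tagln lay at 46.7, 83.7 and 100.2 CPM in 4RARA, and at 267, 225, 202 and 224 CPM in 6RARA. Myh11 lay at 62.3, 117 and 130.4 CPM in 4RARA, and at 361, 335, 315 and 357 CPM in 6RARA. The altitude litters had Acta2 medians of 117 CPM in 3HH and 118 CPM in 4HH, and their highest library, at 274 CPM, lay below all 4 of 6RARA.

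The size of the litter difference varied with the gene. Lower in 4RARA than in 6RARA were 8 members, where 29.9% of genes were. Cnn1 had a log2 difference of −2.05 ± 0.39 (SE), Actg2 of −1.98 ± 0.39, Lmod1 of −1.83 ± 0.27, Myh11 of −1.65 ± 0.26, Tagln of −1.51 ± 0.20 and Acta2 of −1.18 ± 0.31. Mylk and Smtn differed less, by −0.62 ± 0.22 and −0.54 ± 0.12. The 2 members shared with heart muscle went the other way, as 29.1% of genes did: Des was higher in 4RARA by 2.00 ± 0.25 and Myocd by 0.96 ± 0.30. Adjusted p values ranged from 2.29e-07 for Des to 0.0174 for Mylk in edgeR. Between the altitude litters no member passed in edgeR, where 1.47% of genes did. At an unadjusted p under 0.05 there were 3 members among 2140 genes, and the lowest adjusted p was that of Tagln (−0.68 ± 0.18 in 3HH over 4HH, 0.0536).

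**Figure D4:**
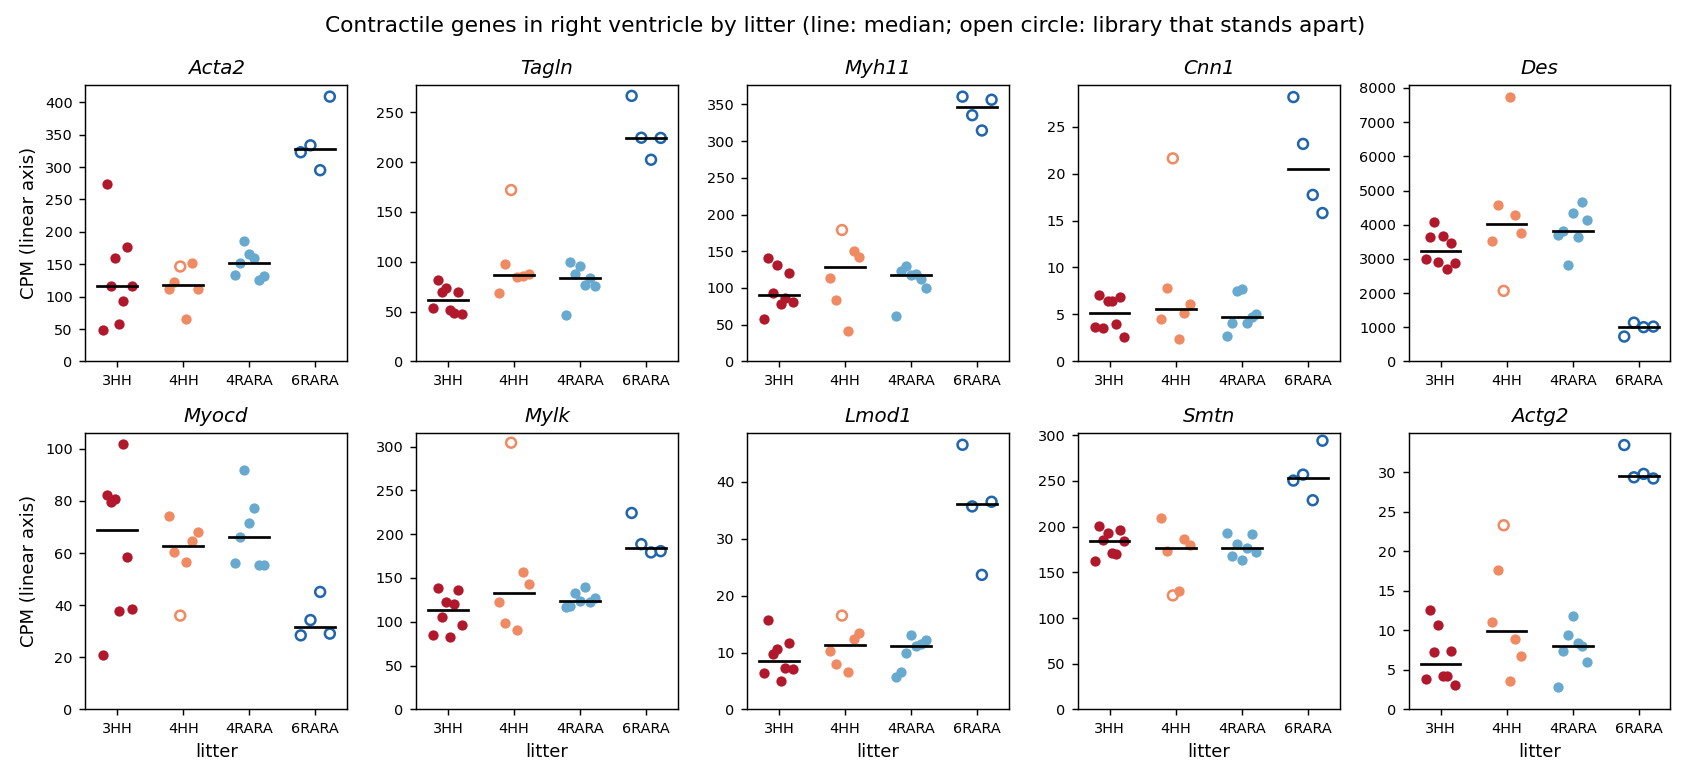
CPM of each gene in right ventricle on linear axes by litter (8 rats of 3HH, 6 of 4HH, 7 of 4RARA, 4 of 6RARA), 1 point per library, with the litter median as a line and libraries that stand apart as open circles. The 4 libraries of 6RARA lie above all 7 of 4RARA for 8 genes and below them for Des and Myocd, while 3HH and 4HH overlap 4RARA.

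Markers of other cell types moved with this litter. Of all genes tested, 29.1% were higher and 29.9% lower in 4RARA. Summed cardiac muscle markers lay at 76340 to 97270 CPM in 4RARA and at 22820 to 34070 CPM in 6RARA, and 11 of 12 tested markers were higher in 4RARA and none lower. Endothelial markers summed to 1725 to 2434 CPM in 4RARA and to 4142 to 5250 CPM in 6RARA, with 9 of 9 lower in 4RARA. Markers of heart muscle and of vessel lining thus differed in opposite directions. Pericyte markers split, with 2 of 9 higher and 6 lower in 4RARA, and their sums overlapped (1194 to 1388 CPM in 4RARA, 1134 to 1391 CPM in 6RARA). Summed fibroblast markers overlapped as well, at 5191 to 10370 CPM in 4RARA and 5427 to 7394 CPM in 6RARA. Of 9 tested, 2 were higher in 4RARA and none lower. Genes of other organs were also present. Lung epithelial markers summed to 23.4 to 214 CPM in 4RARA and 309.6 to 2041 CPM in 6RARA, with 6 of 10 tested lower in 4RARA. Liver markers summed to 13 to 21.6 CPM in 4RARA and 27.7 to 1335 CPM in 6RARA, with 5 of 5 lower in 4RARA. The part of these markers, and of the lower median RIN of this litter, in the differences of the contractile genes was not tested.

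Most lists near the contractile set held calls in both directions between the room air litters of right ventricle, as did all genes. Of 12 contractile partners tested, 4 were higher and 5 lower in 4RARA, where 29.1% of all genes were higher and 29.9% lower. Cald1, caldesmon, had a log2 difference of −1.22 ± 0.12 and Csrp1, a LIM-domain protein of smooth muscle, one of −1.21 ± 0.21. Tpm1, a tropomyosin that is also abundant in heart muscle, was higher by 2.29 ± 0.27, and Synpo2 by 3.09 ± 0.41. Of 9 genes tested on the list of SRF cofactors and repressors 3 were higher and 3 lower. Klf4 was at −2.28 ± 0.22 and Srf itself at 1.14 ± 0.18. Of 10 genes of the synthetic state 5 were lower in 4RARA and none higher, among them Vim, vimentin, at −1.57 ± 0.12. The contraction signalling list gave 6 higher and 10 lower of 21.

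Reads of the actin genes deserve care, since Acta2, Actg2, the cardiac Actc1 and the skeletal Acta1 encode nearly the same protein and the handling of reads that match more than 1 of them is not given in the sources used here. Actc1 was higher in 4RARA than in 6RARA by 3.27 ± 0.25 and Acta1 by 3.29 ± 0.37 in right ventricle, opposite in direction to Acta2 and Actg2. Between littermates in lung, Actc1 followed the mean of the members most closely of all genes outside the set (r = 0.864, 25 libraries). The part of shared reads in these values was not tested. No exon of a member overlapped an exon of another gene in the tables, by their rn6 coordinates. Acta2 lies on chromosome 1 from 252537614 to 252550394, Tagln on chromosome 8 from 50222895 to 50228369, Myh11 on chromosome 10 from 764421 to 859184 and Cnn1 on chromosome 8 from 23113086 to 23121748 in rn6.

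Leaving out one or the other room air litter changed the right ventricle comparison altogether. Without 4RARA all 10 members passed, 8 lower and 2 higher at altitude, where 55.6% of genes passed, and Acta2 had a log2 fold change of −1.44 ± 0.29. Without 6RARA none passed, where 0.158% of genes did, and Acta2 lay at −0.26 ± 0.24. Without all 5 libraries that stand apart no member reached an unadjusted p of 0.05, where 1097 genes did and 0.300% of genes passed. The values were then −0.29 ± 0.24 for Acta2, −0.19 ± 0.15 for Tagln, −0.12 ± 0.20 for Myh11 and −0.07 ± 0.21 for Lmod1. Without animal 4HH37 alone, Tagln (−0.94 ± 0.24), Myh11 (−0.96 ± 0.28) and Cnn1 (−1.12 ± 0.33) passed with adjusted p values of 0.0311, 0.0486 and 0.0496, where 4.72% of genes passed. Within library batches, Acta2 had a log2 fold change of −0.65 ± 0.35 in batch 1 and −1.11 ± 0.45 in batch 2. No member passed in either, where 0 of 11453 genes passed in batch 1 and 0.0352% of 11363 in batch 2. In batch 2, 6 members had an unadjusted p under 0.05, among 2202 genes. In batch 1, 0 members did, among 326 genes. Batch 3 held too few libraries for a fit, with none of 6RARA right ventricle.

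Each altitude litter was also set against 4RARA alone, without animal 4HH37, a comparison added after the data were seen. No member passed in either in edgeR, where 0.715% of 11749 genes passed for 3HH and 0.230% for 4HH. At an unadjusted p under 0.05 there was 1 member for 3HH, among 1735 genes, and 0 for 4HH, among 957 genes. That member was Tagln, at −0.38 ± 0.14 in 3HH (adjusted p = 0.195) and 0.07 ± 0.16 in 4HH. Acta2 was at −0.20 ± 0.26 in 3HH and −0.43 ± 0.29 in 4HH, with 95% intervals of −0.71 to 0.30 and −1.0 to 0.15. Smtn had the narrowest intervals, −0.14 to 0.21 in 3HH and −0.22 to 0.18 in 4HH. Both comparisons share the 7 libraries of 4RARA.

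The pathway lists between altitude and room air right ventricle gave few calls, and none of them held in limma with litter as a random effect, where 0 of 11298 genes passed and 728 had an unadjusted p under 0.05. Cald1 fell at altitude by 0.67 ± 0.18 (edgeR adjusted p = 0.0455), and Pdlim7, a PDZ and LIM protein that binds tropomyosin, rose by 0.34 ± 0.09 (0.0486), in a list of 12 tested with a median of 0.07. Of 9 genes tested on the list of SRF cofactors and repressors 2 fell. Klf4 fell by 1.17 ± 0.33 (0.0488). Jag1, a Notch ligand rather than an SRF cofactor or repressor, fell by 0.84 ± 0.20 (0.0281). Klf4 lay at 50.7, 59.2 and 83.8 CPM in 3HH, 34.2, 65 and 97.3 CPM in 4HH, 38.1, 57 and 91.1 CPM in 4RARA and 261, 269 and 357 CPM in 6RARA (lowest, median, highest). The altitude litters overlapped 4RARA and lay below 6RARA, and the Klf4 value was 0.093 ± 0.17 without 6RARA and −0.49 ± 0.23 with RIN as a covariate (adjusted p = 0.312). No gene of contraction signalling (20 tested) or of the synthetic state (10 tested) passed. Of the marker lists, endothelial markers gave 4 of 9 lower at altitude and cardiac muscle markers 1 of 12 higher, Nppa, the atrial natriuretic peptide gene (1.73 ± 0.48, adjusted p = 0.0473). Pericyte markers gave 1 of 9 lower, Cox4i2 (−0.70, adjusted p = 0.0415), and fibroblast, skeletal muscle, lung epithelial and liver markers gave none. The median log2 fold change was −0.61 for endothelial and −0.26 for pericyte markers, and their part in the values of the contractile genes was not tested.

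Whether the altitude effect differed between lung and right ventricle was tested as an interaction. No member passed in edgeR, where 1.02% of 11723 genes did, although 9 of 10 values were above 0 and the median was 0.50. At an unadjusted p under 0.05 there were 5 members among 1440 genes. The lowest adjusted p was that of Tagln, whose lung effect exceeded its right ventricle effect by 1.04 ± 0.33 on the log2 scale (0.109). Acta2 had a difference of 0.74 ± 0.32, Myh11 of 0.93 ± 0.37 and Lmod1 of 0.91 ± 0.33, none of which passed. Without the libraries that stand apart the difference was 0.38 ± 0.23 for Tagln and 0.23 ± 0.30 for Acta2, 6 of 10 values were above 0, and no member had an unadjusted p under 0.05.

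No difference between males and females was detected in this gene set. No member passed between male and female lung, where 0.0330% of genes did, or between male and female right ventricle, where 0.0443% did, both in edgeR, and none had an unadjusted p under 0.05 among 470 and 724 genes that did. The lowest p in lung was that of Tagln, at −0.38 in males over females with a 95% interval of −0.78 to 0.02.

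Between littermates, the members tended to rise and fall together in lung. No r between pairs of other genes is given for comparison. After centring log2 CPM on the litter mean, and without the libraries that stand apart, all 45 pairs of members correlated positively in lung (25 libraries), with a median Pearson's r of 0.63 and a range from 0.04 to 0.90. Cnn1 and Actg2 had the highest r, 0.901 (Spearman's rho 0.893), followed by Acta2 and Mylk with r = 0.858 (rho 0.775). Permutation p values of r were 1e-05 for both pairs, the smallest that 100000 permutations can give, and 5.62e-05 after adjustment over the 45 pairs. Without the 2 libraries farthest from the median of the first gene, r was 0.873 and 0.811. Des and Mylk had the lowest r, 0.036. The points share tissue pieces, library scaling and litter, so r describes these libraries and no more.

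In right ventricle (20 libraries) 36 of 45 pairs were positive, with a median r of 0.52 and a range from −0.53 to 0.83. Myh11 and Mylk had the highest r, 0.830 (rho 0.890; permutation p of r = 1e-05, adjusted 0.00045; 0.862 without the 2 farthest libraries). Des had the lowest r with the mean of all 10 members there, −0.15, against 0.55 to 0.88 for the other members. Each member is part of that mean, which raises its own r. Desmin's lowest pair value, −0.53 with Smtn, had a permutation p of 0.116 and an r of −0.16 without the 2 farthest libraries, so it rests on those. In lung, Des had an r of 0.62 with the member mean, and Lmod1 the highest at 0.92.

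**Figure D5:**
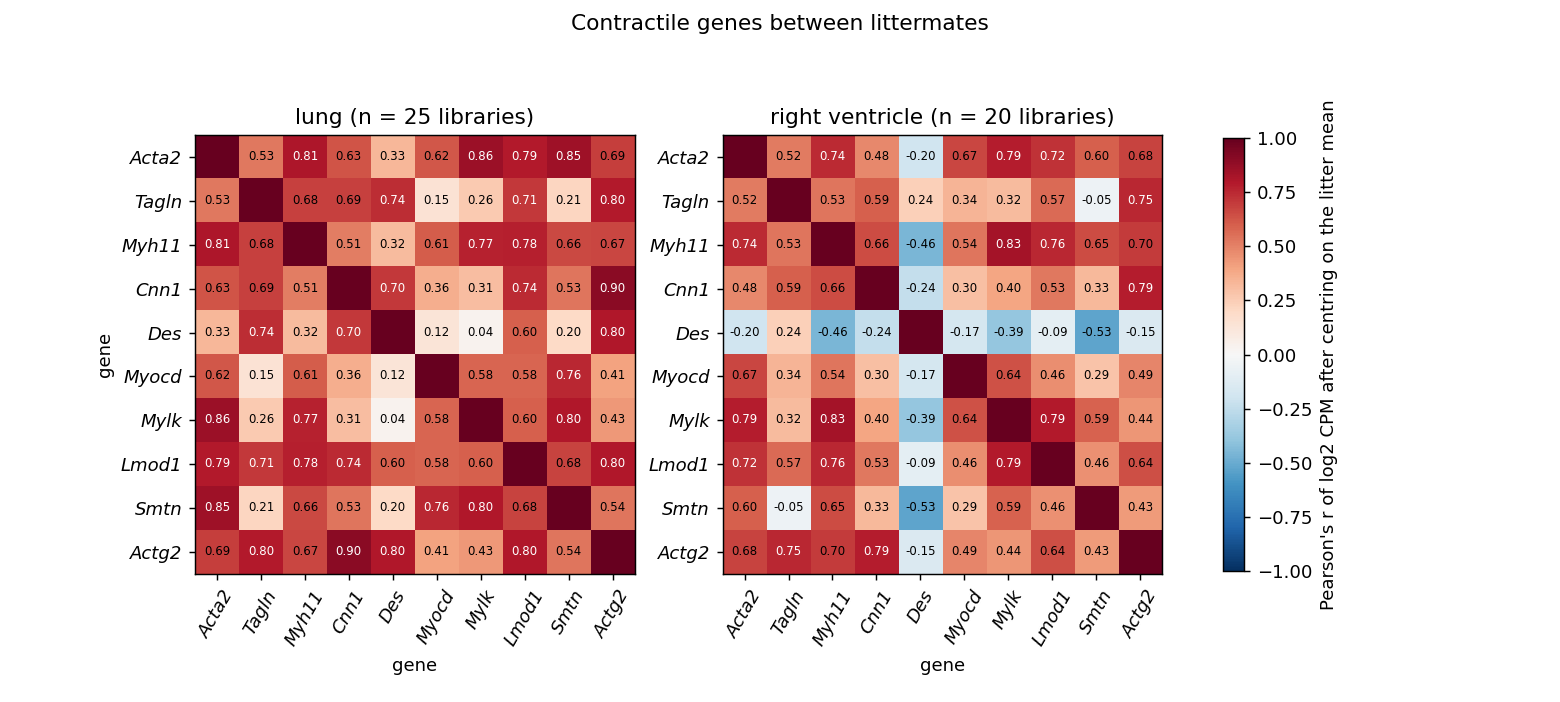
Pearson's r between members over littermates, from log2 CPM centred on the litter mean, lung left (25 libraries) and right ventricle right (20 libraries), without the libraries that stand apart. Lung is positive throughout, and in right ventricle 8 of the 9 pairs below 0 include Des, the other being Tagln with Smtn.

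The genes outside the set whose pattern was most like the mean of the members differed by tissue. In lung they were Actc1 (r = 0.864, rho 0.832), Eln, which encodes elastin (r = 0.825, rho 0.822), Pdzrn3 (r = 0.786), Ism1 (r = 0.772) and Doc2b (r = 0.762), over 25 libraries. In right ventricle they were Astn2 (r = 0.901, rho 0.856), Sh3rf1 (r = 0.890), Egflam (r = 0.860), Ctnnd1 (r = 0.854) and Mmp17 (r = 0.851), over 20 libraries. They were picked as the 5 highest in each tissue, so these values carry no test.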

How the data were processed

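The deposited read counts are raw whole counts per gene, per the file headers, on the rn6 genome. Per the submitters' processing notes, STAR 2.5, featureCounts 1.5.1, FastQC, MultiQC 0.11.5 and edgeR were used, with roles beyond that and the filter on genes not given in the sources used here. The deposited log2 fold changes and the deposited p-values and false discovery rates are the authors' own and stand only beside the values computed here. Their log2 RPKM columns played no part. The tests ran in edgeR 4.0.16 (R 4.3.3): filterByExpr (minimum count 10, minimum total 15), TMM scaling, estimateDisp, robust glmQLFit and glmQLFTest with treatment and sex, or with litter and sex for litters, and Benjamini-Hochberg adjustment over all genes tested. A gene passed at an adjusted p under 0.05, and the SE is the log2 fold change divided by the square root of F. Adjusted p values come from this fit unless another tool is named. The script was tested on simulated data. CPM per kb used the exon lengths of the tables. For correlations, a pseudocount of 0.5 CPM was added and p is two-sided. Alternatives were DESeq2 1.42.0, RLE scaling, no filter, each litter left out, libraries left out, litter as a random effect in limma 3.58.1, litter sums, library batch, RIN and a block on animal. The members, the gene and marker lists and the libraries that stand apart were chosen with earlier results of these data known. All members were described. Of each other list, the text names genes that passed, up to the 4 of lowest p, or else the 1 of lowest p. A note beside the samples of 3HH28 in a deposited sheet speaks of swapped samples in connection with RIN; the labels' RIN was used.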

Additional observations from a re-analysis of the deposited data

Results flagged for a closer look

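Each litter was searched for a rat far from its littermates: the gap between the highest or the lowest library and its nearest neighbour was set against the range of the litter. Of 80 combinations of gene, tissue and litter, 13 met Dixon's criterion, which chance meets in about 1 of 20.

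In lung, 4RARA40 was high for 3 members: Acta2 at 250.9 CPM (nearest littermate 191 CPM), Des at 108.7 CPM (79.7 CPM) and Actg2 at 69.9 CPM (47.9 CPM). Lung of 6RARA66, with 1028679 counts in all, was high for Des at 303 CPM (176 CPM) and Actg2 at 137 CPM (77.8 CPM). Des of 4HH37 lay at 826 CPM (234.5 CPM). Smtn was low in 4HH39 at 15.8 CPM (62.8 CPM) and in 6RARA68 at 16.7 CPM (40.3 CPM). Actg2 of 3HH21 lay at 43.1 CPM (32.7 CPM).

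In right ventricle, 4HH37 was high for Tagln at 172 CPM (97.8 CPM), Cnn1 at 21.6 CPM (7.85 CPM) and Mylk at 304 CPM (156 CPM). All 3 were higher in room air lung than in room air right ventricle, and this library held lung epithelial markers at a summed 15200 CPM, whose part in its values was not tested. Actg2 of 6RARA65 lay at 33.5 CPM (29.8 CPM).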

How the results depend on the processing

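Litter set the limits: each exposure had 2 litters, and no fit separates exposure from litter. No member passed with litter as a random effect, where 0.0825% of 12115 genes did in lung and 0 of 11298 in right ventricle. With counts summed per litter no member passed either, where 0 of 12650 genes passed in lung and 0 of 12197 in right ventricle. The number of members called between altitude and room air was 0 in lung and 1 without 4HH. In right ventricle it was 0, but 4 in DESeq2, 10 without 4RARA and 3 without 4HH37. The remaining alternatives gave 0 calls in either tissue.

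Signs of lung log2 fold changes turned often, also for Des, Actg2, Cnn1 and Tagln, which were farther from 0, with no turned value past the threshold. Without 3HH they were 0.25 for Acta2, 0.098 for Cnn1, 0.064 for Myocd, −0.030 for Mylk, 0.18 for Lmod1 and 0.018 for Actg2. Without 4HH they were −0.24 for Tagln and −0.43 for Des, and without 4RARA −0.012 for Tagln, −0.20 for Myh11 and −0.13 for Des. Without 6RARA they were 0.17 for Acta2, 0.24 for Cnn1, −0.061 for Mylk and 0.38 for Lmod1. Des was at −0.079 in DESeq2, −0.088 without 4HH37 and −0.039 without the libraries that stand apart, where Lmod1 was at 0.068. With litter as a random effect Myh11 was at −0.021, Mylk at −0.015 and Lmod1 at 0.051; with litter sums Acta2 was at 0.033 and Lmod1 at 0.017; with RIN Mylk was at −0.076 and Lmod1 at 0.037. Within batch 1 Myh11 was at −0.31 and Des at −0.18, and within batch 2 Acta2 at 0.16, Tagln at −0.036, Myocd at 0.13 and Lmod1 at 0.13.

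In right ventricle Mylk was at 0.0038 without 3HH. Without 6RARA, Cnn1 was at 0.31, Des at −0.063, Myocd at −0.13, Mylk at 0.022, Lmod1 at 0.0016 and Actg2 at 0.20. Without the libraries that stand apart, Des was at −0.016, Myocd at −0.093, Smtn at 0.012 and Actg2 at 0.012. Within batch 1 Myocd was at −0.077 and Mylk at 0.089. The cause of these changes was not tested.

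Between litters, without the libraries that stand apart, 3HH over 4HH gave −0.12 for Mylk in lung. In right ventricle, with only 4HH37 left out, it gave 0.022 for Cnn1 and −0.046 for Myocd. Without all libraries that stand apart, the difference of the altitude effect between the tissues turned for Cnn1 (−0.32), Des (−0.041) and Actg2 (−0.45). Lung over right ventricle was then 0.043 for Acta2.

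The replicate block paired lung and right ventricle of the 25 animals with both. With it the difference of the altitude effect was 0.95 for Tagln and 0.72 for Acta2, and Des turned to −0.34. No member passed, where 0.975% of 11697 genes did. In lung over right ventricle the block called 9 members rather than 8, adding Lmod1 (0.45). It called 71.8% of genes there, where the fit without the block called 68.4%. Animal numbers shared across exposures do not pair rats.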
